A study of Mus musculus with 14 samples.

Results

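The microRNA processing and silencing machinery was followed here through 10 core genes of the 24091 genes in the counts table: Drosha, Dgcr8, Xpo5, Dicer1, Ago1, Ago2, Ago3, Tnrc6a, Tnrc6b and Tnrc6c, each taken as the row whose symbol equals the gene name. The data were bulk mRNA sequencing of T cells sorted from the spleen, 200000 cells per mouse and 1 library per mouse. Both groups were C57Bl/6j mice that carried SCLtTA/BCR-ABL, a transgene pair in which the stem cell leukemia (Scl) enhancer drives the tetracycline transactivator and BCR-ABL is switched on by tetracycline withdrawal (tet-off), and in both BCR-ABL had been on for 3 weeks. The 8 Mir142+/+BCR-ABL mice model chronic phase chronic myeloid leukemia (CP CML) and the 6 Mir142−/−BCR-ABL mice model blast crisis (BC CML). Mice were of both sexes and 6 to 10 weeks old. The Mir142 knockout is constitutive, so that Mir142 was lacking in every cell of the BC CML mice and not in T cells alone, and no library of mice without BCR-ABL was analysed here. The library names carry 1 number shared by all CP CML mice and another shared by all BC CML mice. What these numbers stand for is not given in the sources used here, and whatever they mark cannot be told apart from genotype.

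Most animal microRNAs are cut from long primary transcripts in the nucleus by the Microprocessor, in which Drosha is the nuclease and Dgcr8 the RNA-binding partner. Exportin-5 (Xpo5) carries the hairpin to the cytoplasm, Dicer1 cuts it to a duplex, and 1 strand is loaded into an Argonaute protein, which the Tnrc6 (GW182) scaffold proteins connect to the deadenylases that shorten the poly(A) tail of the target. In T cells this pathway is known to shape development, activation and the balance of effector and regulatory fates, and activated T cells are known to lower their Argonaute protein. The libraries measured mRNA, so the values below are transcript levels of the machinery, and neither its proteins nor mature microRNAs were measured.

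The deleted microRNA has a mature product from each arm of its hairpin, and both sequences are shown because their seeds, bases 2 to 8 in capitals, are what was searched for in the transcripts of the machinery. The RefSeq entries (GRCm38.p6, plus strand) lie at chr11:87756903-87756925 for the 3p arm and chr11:87756867-87756887 for the 5p arm.
mmu-miR-142a-3p: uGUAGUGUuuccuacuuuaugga
mmu-miR-142a-5p: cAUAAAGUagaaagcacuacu

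The depth was 15703702 to 19914531 reads in CP CML (median 17186326) and 16145537 to 19399720 reads in BC CML (median 18746069.5). Mir142 itself had 302 to 650 reads in CP CML and no read in any BC CML library, which is at least 167-fold lower when each library at 0 is set to a floor of 3 reads. Below, a level is in CPM, the reads of a gene relative to the size of its library as scaled by TMM, a difference is the log2 fold change of BC CML over CP CML with its standard error (SE), and a gene is said to have risen or fallen when the adjusted p-value (edgeR quasi-likelihood test with Benjamini-Hochberg adjustment over the 12248 genes tested) was below 0.05. By this test 65.2% of all genes tested differed between the groups, 32.6% higher and 32.7% lower in BC CML. Of the 10 core genes 8 differed (3 higher, 5 lower), which has to be read against that background. The groups did not overlap for 4 of the 10 core genes, all of them lower in BC CML, where 36.9% of all genes tested had groups that did not overlap and 17.6% lay wholly lower in BC CML.

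The changes of the core genes were small. Their largest absolute log2 fold change was 0.39, the median of the absolute values was 0.22 against 0.28 over all genes tested, and the median with sign was -0.03 against -0.01. The core genes had no common direction, and they are described in the order in which a microRNA meets them.

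**Figure D1:**
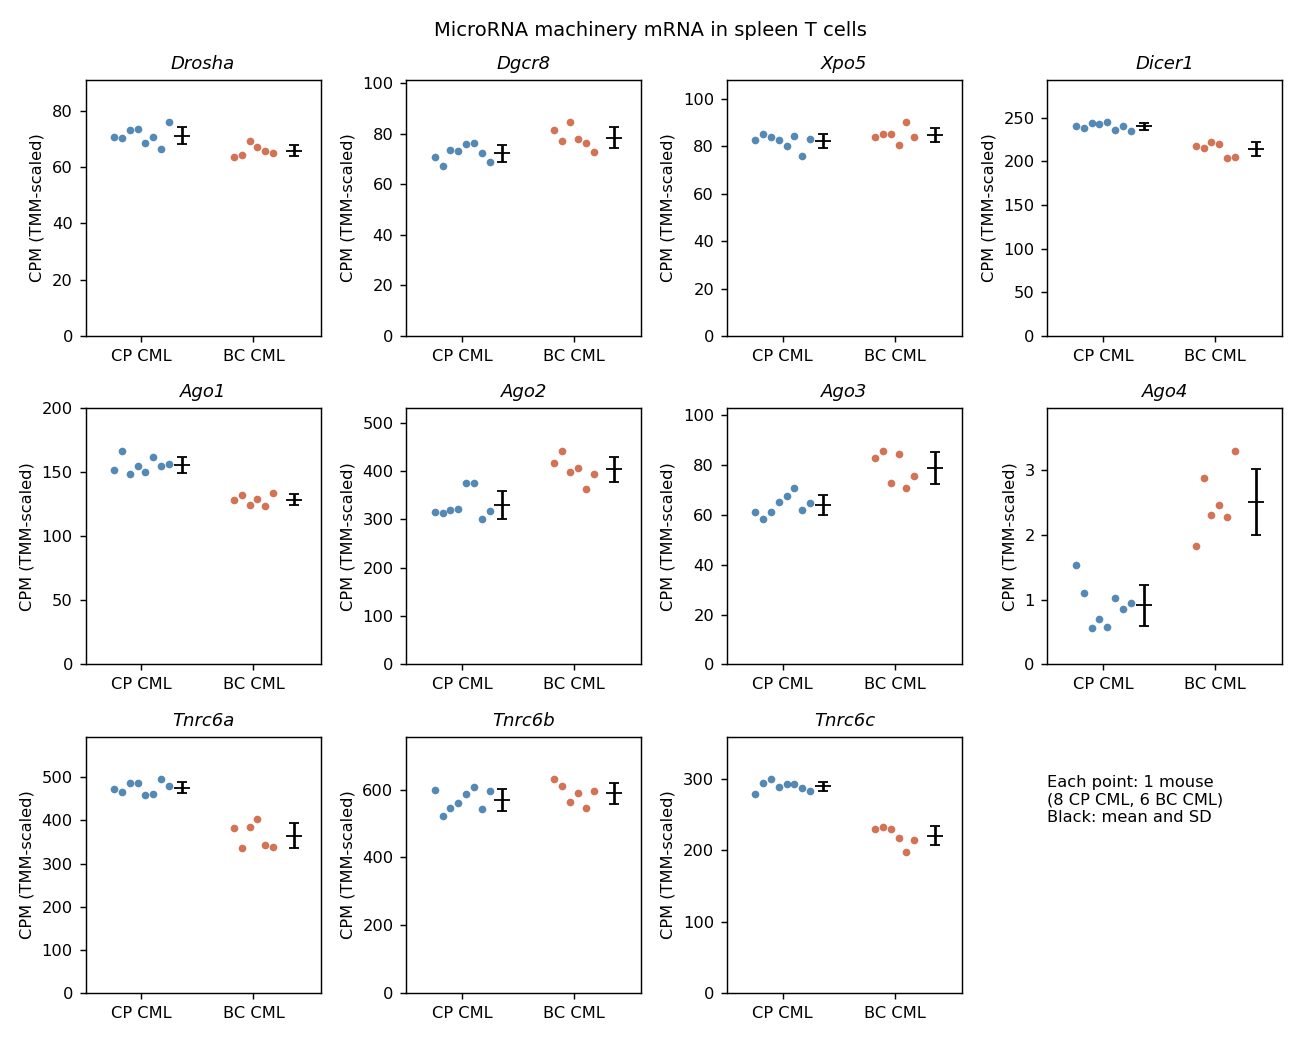
Level of each core gene and of Ago4 in each mouse, in CPM (vertical axis from 0), with 8 CP CML mice in blue and 6 BC CML mice in red, and the mean and SD in black. Dicer1, Ago1, Tnrc6a and Tnrc6c lie lower in every BC CML mouse than in any CP CML mouse, and Ago4 lies higher in every BC CML mouse.

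The genes of the Microprocessor moved in opposite directions, each by a small amount. Drosha (chr15:12824815-12935291, plus strand, mm10) had 66.2 to 75.8 CPM in CP CML (median 70.7) and 63.7 to 69.3 CPM in BC CML (median 65.2). The ranges overlapped, with 4 of the 6 BC CML mice lower than every CP CML mouse, and Drosha fell by 0.11 (SE 0.0362, adjusted p = 0.0119). Dgcr8 (chr16:18253965-18289168, minus strand) had 67.3 to 76.3 CPM in CP CML (median 72.7) and 72.7 to 84.5 CPM in BC CML (median 77.6). Again the ranges overlapped, with 4 BC CML mice higher than every CP CML mouse, and Dgcr8 rose by 0.12 (SE 0.0408, adjusted p = 0.0184). The call for Dgcr8 was lost without BC CML replicate 3, the highest of its group (log2 fold change 0.09, adjusted p = 0.0571). Dgcr8 mRNA is known to carry a hairpin that the Microprocessor itself cuts, listed in the table as Mir1306, which held 0 reads in every library. Mir1306 lies inside Dgcr8 on the same strand, and how reads that fall in both were assigned is not known, so the 0 does not show a lack of coverage. The end of Dgcr8 overlaps Trmt2a on the opposite strand, which held 976 to 1369 reads in CP CML and 1072 to 1270 in BC CML, and how reads in the overlap were assigned is not given in the sources used here.

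Export did not differ by this test. Xpo5 (chr17:46202855-46242299, plus strand), the carrier of the hairpin precursor, had 75.8 to 85.4 CPM in CP CML (median 83.1) and 80.8 to 90.1 CPM in BC CML (median 84.7). The log2 fold change was 0.04 (95% interval -0.03 to 0.12, adjusted p = 0.276), so a change of the size seen for Drosha lies just inside the upper bound and a decrease of that size lies outside the interval. Ran, the GTPase that gives Xpo5 its direction, also did not pass, with 180.5 CPM in CP CML and 174.6 CPM in BC CML (adjusted p = 0.392).

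Dicer1 transcript was lower in every BC CML mouse, with little spread within the groups. Dicer1 (chr12:104687742-104751952, minus strand) had 235.0 to 244.5 CPM in CP CML (median 240.4) and 203.7 to 221.8 CPM in BC CML (median 216.9). The groups did not overlap, and Dicer1 fell by 0.17 (SE 0.0300, adjusted p = 0.00011), a level 10.8% lower. The double-stranded RNA-binding partners of Dicer1 moved apart from each other. Tarbp2, which encodes TRBP, fell from 22.3 ± 1.30 CPM (SD, n = 8) to 17.6 ± 1.44 CPM (SD, n = 6), a log2 fold change of -0.34 (SE 0.0600, adjusted p = 8.05e-05). Prkra, which encodes PACT, was low in both groups and rose from 3.73 ± 0.74 CPM to 8.06 ± 0.73 CPM, a log2 fold change of 1.11 (SE 0.123, adjusted p = 3.89e-07). Adar, an editing enzyme of double-stranded RNA that also binds Dicer, fell from 255.5 ± 8.64 CPM to 203.9 ± 15.6 CPM (log2 fold change -0.33, SE 0.0437, adjusted p = 4.02e-06). The groups did not overlap for any of these 4 genes, as for 36.9% of all genes tested.

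Among the Argonautes, which hold the microRNA and find its targets, Ago1 fell while Ago2 and Ago3 rose. Ago1 (chr4:126435013-126468583, minus strand) had 148.6 to 166.8 CPM in CP CML (median 155.0) and 123.4 to 133.7 CPM in BC CML (median 129.2). The groups did not overlap, and the log2 fold change of Ago1 was -0.27 (SE 0.0346, adjusted p = 1.88e-06). Ago2 (chr15:73101625-73184947, minus strand), the family member known to cut a fully paired target, had 299.7 to 375.9 CPM in CP CML (median 318.7) and 363.5 to 441.4 CPM in BC CML (median 401.6). Of the CP CML mice 6 lay between 299.7 and 321.5 CPM and replicates 5 and 6 lay at 375.9 and 375.6 CPM, inside the BC CML range, and 5 of the 6 BC CML mice were higher than every CP CML mouse. Ago2 rose by 0.29 (SE 0.0559, adjusted p = 0.00021).

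Ago3 (chr4:126340678-126429542, minus strand), the neighbour of Ago1 on chromosome 4, had 58.4 to 70.6 CPM in CP CML (median 63.2) and 70.6 to 85.6 CPM in BC CML (median 79.0). The ranges met at CP CML replicate 6 and BC CML replicate 5, both at 70.6 CPM, and the other 5 BC CML mice were higher than every CP CML mouse. Ago3 rose by 0.30 (SE 0.0527, adjusted p = 7.84e-05). Ago4 (chr4:126489543-126533458, minus strand), which is not a core gene here but completes the family, held few reads, with 9 to 28 reads in CP CML and 33 to 64 reads in BC CML. Its level was 0.562 to 1.53 CPM in CP CML (median 0.901) and 1.83 to 3.29 CPM in BC CML (median 2.38), without overlap. Ago4 rose by 1.45 (SE 0.215, adjusted p = 1.21e-05), the largest fold change among the genes of the pathway that were tested, from the lowest level among the Argonautes. Ago1, Ago3 and Ago4 lie side by side on the same strand of chromosome 4 and did not move together.

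Of the GW182 scaffolds 2 fell and 1 did not pass (66.7% called, against 65.2% of all genes tested). Tnrc6a (chr7:123123885-123195296, plus strand) had 458.3 to 495.2 CPM in CP CML (median 476.0) and 335.3 to 402.7 CPM in BC CML (median 362.2). The groups did not overlap, and Tnrc6a fell by 0.39 (SE 0.0445, adjusted p = 6.42e-07), a level 23.5% lower. Tnrc6c (chr11:117654289-117763441, plus strand), on the chromosome that carries Mir142, had 278.8 to 299.5 CPM in CP CML (median 290.7) and 197.5 to 232.2 CPM in BC CML (median 223.8). There was no overlap here either, and Tnrc6c fell by 0.39 (SE 0.0376, adjusted p = 6.04e-08), a level 23.9% lower and the largest change of the 10 core genes. In absolute size, the change of Tnrc6c exceeded that of 62.8% of all genes tested. Tnrc6b (chr15:80711313-80941086, plus strand) had 521.1 to 608.9 CPM in CP CML (median 574.2) and 546.4 to 630.6 CPM in BC CML (median 593.5). The log2 fold change of Tnrc6b was 0.05 (95% interval -0.04 to 0.14, adjusted p = 0.351), an interval that does not reach the size of the change in Tnrc6a or Tnrc6c.

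**Figure D2:**
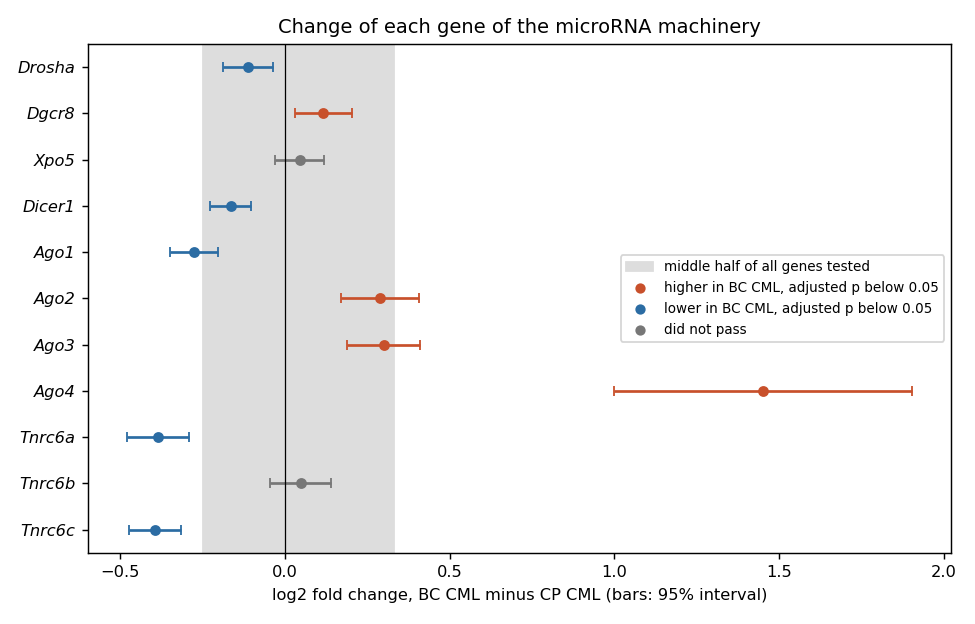
Log2 fold change of BC CML over CP CML (horizontal axis) with its 95% interval for the 10 core genes and Ago4, in red where the gene rose, in blue where it fell and in grey where it did not pass. The grey band runs from -0.25 to 0.33, the 25th to the 75th percentile of all 12248 genes tested, and Ago4, Tnrc6a, Tnrc6c and, by a small margin, Ago1 lie outside it.

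Set side by side per length (RPKM, the CPM divided by the gene length in kilobases, computed from the counts and the gene lengths in the table), the scaffolds and Ago2 were the most abundant transcripts of the machinery in CP CML. There the level was highest for Tnrc6a (51.8 ± 1.44 RPKM, SD, n = 8), followed by Ago2 (41.2 ± 3.63), Tnrc6b (27.9 ± 1.57), Tnrc6c (23.7 ± 0.54) and Ago1 (21.4 ± 0.83). Xpo5 (17.5 ± 0.66 RPKM), Dicer1 (17.3 ± 0.26), Drosha (12.6 ± 0.53), Dgcr8 (11.5 ± 0.51) and Ago3 (8.10 ± 0.51) followed, and Ago4 was at 0.140 ± 0.049 RPKM. The neighbours in this order whose ranges over the mice overlapped were Tnrc6c and Ago1, Xpo5 and Dicer1, and Drosha and Dgcr8. In BC CML Ago2 (50.3 ± 3.23 RPKM, SD, n = 6) stood first and Tnrc6a second (39.6 ± 3.18), without overlap between them, followed by Tnrc6b (28.9 ± 1.51). Next came Xpo5 (17.2 to 19.2 RPKM), the scaffold Tnrc6c (16.1 to 19.0 RPKM) and Ago1 (16.9 to 18.3 RPKM), whose ranges overlapped. Ago3 (9.97 ± 0.81) again stood last of the 10 core genes.

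The make-up of both families was therefore compared within each mouse, where depth and scaling cancel. Ago1 made up 27.1 to 32.9% of the summed Argonaute RPKM in CP CML and 21.5 to 23.7% in BC CML, and Ago2 made up 56.1 to 61.6% and 63.3 to 65.1%. The share of Ago3 was 10.7 to 11.8% in CP CML and 12.1 to 13.5% in BC CML, and that of Ago4 was under 1% in every mouse. None of these 4 shares overlapped between the groups. The shares of a family add up to the whole, so a lower level of Ago1 by itself raises the shares of the others. Of the GW182 family, Tnrc6b made up 25.5 to 28.6% of the RPKM in CP CML and 31.2 to 35.0% in BC CML, without overlap. Tnrc6a made up 50.1 ± 1.21% (SD, n = 8) and 45.8 ± 2.14% (SD, n = 6), and Tnrc6c 22.9 ± 0.67% and 20.8 ± 0.91%.

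The log2 ratios of read counts behind these shares were compared for all 9 pairs of genes within the families by a two-sided exact permutation test over all splits of the 14 mice into 8 and 6, with Benjamini-Hochberg adjustment over the 9 pairs. Of the 9 pairs 7 passed. How often the ratios of other pairs of genes pass was not tested, and 65.2% of all genes tested differed on their own. The ratio of Ago1 to Ago2 was lower in BC CML by 0.57 on the log2 scale (-1.08 ± 0.14 in CP CML and -1.64 ± 0.074 in BC CML, SD, exact adjusted p = 0.00060), and that of Ago1 to Ago3 also by 0.57 (exact adjusted p = 0.00060). The ratio of Tnrc6a to Tnrc6b was lower by 0.44 and that of Tnrc6b to Tnrc6c higher by 0.44 (exact adjusted p = 0.00060 for both, from p = 0.000333, the smallest that these splits can give). The 3 ratios to Ago4 passed as well (exact adjusted p at most 0.0017).

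The other 2 pairs had nearly the same ratio in both groups. The log2 ratio of Ago2 to Ago3 was 2.37 ± 0.070 in CP CML and 2.36 ± 0.059 in BC CML (SD, exact adjusted p = 0.897), and that of Tnrc6a to Tnrc6c was 0.72 ± 0.055 and 0.72 ± 0.12 (exact adjusted p = 0.897). Both differences changed sign when single mice were left out, within -0.02 to 0.01 for Ago2 to Ago3 and -0.03 to 0.05 for Tnrc6a to Tnrc6c. Summed over the family, Argonaute transcript was 66.7 to 78.2 RPKM in CP CML and 71.6 to 84.6 RPKM in BC CML, ranges that overlapped. Summed GW182 transcript was 100.2 to 104.4 RPKM in CP CML and 80.1 to 91.3 RPKM in BC CML, which did not overlap.

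**Figure D3:**
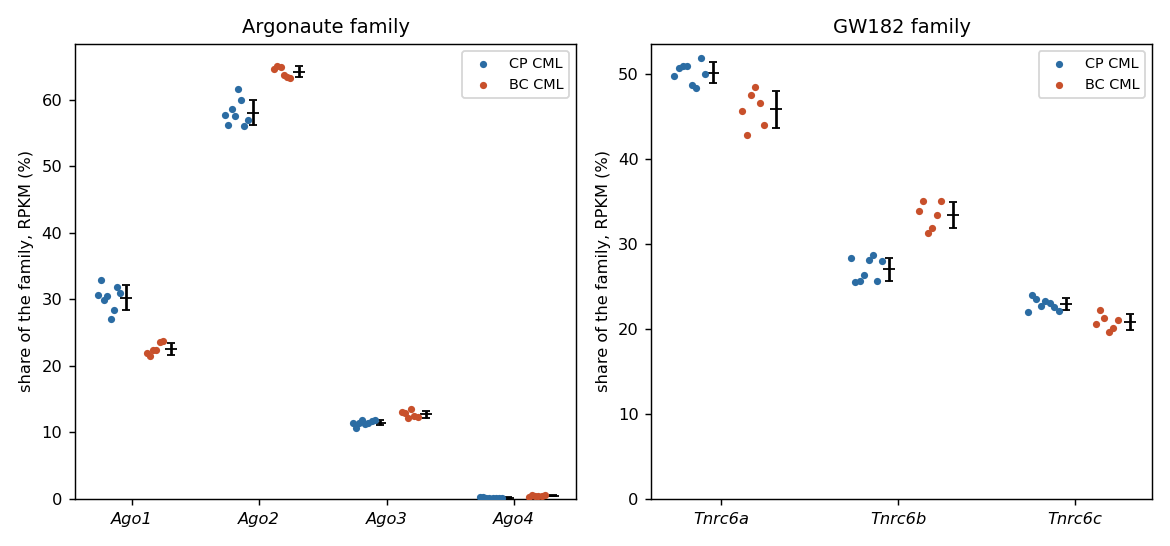
Share of each gene in the summed RPKM of its family (vertical axis, percent, from 0) in each mouse, for the Argonautes on the left and the GW182 scaffolds on the right, with CP CML in blue, BC CML in red, and the mean and SD in black. The share of Ago1 is lower and that of Ago2 and Ago3 higher in every BC CML mouse than in any CP CML mouse, and Tnrc6b makes up more of the GW182 family in every BC CML mouse.

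How the core genes varied between mice of the same group was described by the correlation of their log2 CPM after the group means were removed, over 14 mice that share the library preparation and the scaling. Over the 45 pairs, Pearson's r ran from -0.48 (Dgcr8 and Ago1) to 0.82 (Ago2 and Ago3), with a median of 0.12 and 28 pairs positive. The other pairs with r over 0.65 were Ago3 and Tnrc6b (0.75), Dicer1 and Tnrc6c (0.70), Dicer1 and Tnrc6a (0.67), and Ago2 and Tnrc6b (0.66). Of the genes in these pairs Ago2 and Ago3 rose, Dicer1, Tnrc6a and Tnrc6c fell, and Tnrc6b did not pass. The 5 genes most like Dicer1 by this measure among all genes tested were Flt3l (r = 0.88), Pigq (0.88), Flad1 (0.87), Gigyf1 (0.87) and Pan2 (0.86). They are the highest of many correlations over only 14 mice, and how high the top values run by chance was not tested. Of these Gigyf1 fell (log2 fold change -0.43) and Flad1 fell (-0.25) as Dicer1 did, Flt3l rose (0.80), and Pigq and Pan2 did not pass (-0.10 and 0.02).

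Since the BC CML cells lack miR-142, the 3′UTRs of the core genes were searched for letters that pair with its seeds. The longest 3′UTR of each gene in GENCODE vM21, which is on the genome build of the counts, was searched on the transcript strand for the 8mers ACACTACA (3p) and ACTTTATA (5p) and for their first or last 7 bases, each place being counted once under its longest match. A match is a description of the letters and not a site shown to bind. Of the 10 core genes 5 held a match (50%), against 30.7% of the 11503 tested genes with a 3′UTR, but the 3′UTRs of Ago2 (11064 bases), Ago3 (12742) and Tnrc6b (11609) are among the longest, with a median of 1186 bases over all genes. Among genes with a 3′UTR of similar length (47, 27 and 39 genes), 89.4%, 88.9% and 92.3% held a match.

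Ago3 held the only 8mers of the machinery and is shown for that reason. Its match to miR-142a-3p lies inside the span counted for the gene (chr4:126343631-126343638, minus strand), and its 8mer match to miR-142a-5p (chr4:126333646-126333653, minus strand) lies in a stretch of the 3′UTR beyond that span. Ago2 held the only other match to the 3p arm, of 7 bases (chr15:73101773-73101779, minus strand). The matches are in capitals, 5′ to 3′, as transcribed.
Ago3, match to the 3p arm: tctgaggacagACACTACAgatgtttgtgg
Ago3, match to the 5p arm: tatatataaatACTTTATAacactctatgg
Ago2, match to the 3p arm: cttagccaaatCACTACAgaaggtggtttc

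Matches to the 3p seed were thus found in 2 of the 10 core genes (20%, against 12.1% of the genes searched, most of which have far shorter 3′UTRs), and both genes rose. Among genes with a 3′UTR of similar length, 51.9% (Ago3) and 53.2% (Ago2) held a match to the 3p seed, and 44.4% of those of the length of Ago3 held an 8mer to either arm. Matches to the 5p seed alone were found in Ago1 and Tnrc6c, 1 each, which fell, and in Tnrc6b, 2, which did not pass. The examples from Ago1 (chr4:126435258-126435264, minus strand) and Tnrc6c (chr11:117762721-117762727, plus strand) are shown because they belong to genes that moved the other way.
Ago1, match to the 5p arm: ctctgggtttcACTTTATtttctaaacttt
Tnrc6c, match to the 5p arm: tttgaagagtgCTTTATAtattaaaaattg

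Drosha, Dgcr8, Xpo5, Dicer1 and Tnrc6a held no match in this window, and of these Drosha, Dicer1 and Tnrc6a fell and Dgcr8 rose. For Drosha, with a 3′UTR of 169 bases, only 5.5% of genes of similar length held a match. The share was 30.8% at the length of Xpo5 (1327 bases) and 34.9% at that of Dgcr8 (1574). It was 44.8% at the length of Tnrc6a (2345) and 61.9% at that of Dicer1 (3851). Ago4, which rose most, held none in 3682 bases, a length at which 60.0% of genes held a match. With 5 core genes on each side, the presence of a match and the direction of change were not tested against each other.

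The wider pathway was described with 79 genes grouped by role, 76 of which were tested. Of these 17 rose, 28 fell and 31 did not pass (59.2%, against 65.2% of all genes tested), with a median log2 fold change of -0.03 and a median absolute value of 0.17, against 0.28 over all genes. Without the 10 core genes 14 of 66 rose and 23 fell (56.1%). Neither the share that moved nor the size of the moves set the pathway above the rest of the transcriptome.

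Of the Microprocessor and its cofactors (13 tested) 1 rose, 4 fell and 8 did not pass (38.5% called, against 65.2% of all genes tested). Beside Drosha, those that fell were Ddx5 (p68, an RNA helicase of the complex), Srrt (ARS2, which links the cap to primary microRNA processing) and Ilf2, which was named after its values were seen. Ddx5 fell from 2967 ± 216 CPM to 2704 ± 217 CPM (log2 fold change -0.13, adjusted p = 0.0468), a call that was lost in 3 of the 7 alternative fits and in 9 of the 14 fits that left out 1 mouse. Its paralog Ddx17 (p72) had a log2 fold change of 0.14 and did not pass (adjusted p = 0.0902). Srrt fell by 0.25 (adjusted p = 0.0229), a call lost without BC CML replicate 6 (adjusted p = 0.0543) and in 1 of the 7 alternative fits (adjusted p = 0.0618). Of the 7 tested chaperones that help to load the Argonautes only Fkbp5 passed (14.3% called, against 65.2% of all genes tested). Fkbp5 encodes a co-chaperone of Hsp90 and is a known glucocorticoid target. It rose by 0.70 (adjusted p = 0.0103) with a wide spread in BC CML, from 163.8 to 529.3 CPM, and was named after its values were seen.

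Downstream of the scaffolds, 3 of the 16 genes of the CCR4-NOT and PAN2-PAN3 deadenylases and their adaptors rose, 7 fell and 6 did not pass (62.5% called, against 65.2% of all genes tested). Cnot1, the platform of the CCR4-NOT complex, fell by 0.19 (adjusted p = 2.97e-05) and Cnot6l, one of its nucleases, by 0.32 (adjusted p = 4.44e-06), both without overlap. Cnot6, Cnot7, Cnot9, Cnot11 and Pan3 fell by 0.12 to 0.24. The 3 that rose were Cnot3 and the antiproliferative adaptors Tob1 and Btg1, the last by 0.40 (adjusted p = 4.41e-05). The calls for Cnot7 and Tob1 were lost in several fits that left out 1 mouse (6 and 4 of 14). They were also lost in 2 (Cnot7) and 1 (Tob1) of the 7 alternative fits. Apart from Cnot6l, these genes were named after their values were seen.

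Of the 19 genes of repression, decapping and decay 5 rose, 7 fell and 7 did not pass (63.2% called, against 65.2% of all genes tested). Dcp1a, the activator of the decapping enzyme, had 92.3 to 103.3 CPM in CP CML (median 99.0) and 64.6 to 71.8 CPM in BC CML (median 68.7), and fell by 0.53 (SE 0.0371, adjusted p = 1.08e-09). Edc4, the scaffold of decapping, fell from 111.2 ± 4.43 CPM to 86.5 ± 2.42 CPM (log2 fold change -0.36, adjusted p = 5.78e-08). The enzyme itself, Dcp2, fell by 0.19, and Edc3 by 0.20. Pabpc1, the poly(A)-binding protein that GW182 proteins contact, fell from 2117 ± 147 CPM to 1500 ± 79.5 CPM (log2 fold change -0.50, adjusted p = 1.18e-07). Xrn1, the exonuclease that degrades decapped mRNA, moved the other way, from 224.6 to 259.3 CPM in CP CML (median 244.6) to 280.6 to 347.4 CPM in BC CML (median 305.8), and rose by 0.34 (adjusted p = 5.40e-06). The decapping genes Dcp1b and Ddx6 did not pass (log2 fold changes 0.05 and -0.03). The others that rose were Lsm14a, Lsm14b, Mov10 and Fxr1, and the others that fell were Patl1 and Eif4e2. The call for Lsm14a was lost in 2 of the 14 fits that left out 1 mouse and in 1 of the 7 alternative fits. That for Eif4e2 was lost in 7 of the 14 fits that left out 1 mouse and in 2 of the 7 alternative fits. Of this group Dcp1a, Edc4, Pabpc1 and Xrn1 were named by rule and the others after their values were seen.

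Of the genes that trim, tail or destroy microRNAs 8 of 11 were tested, and 3 rose and 4 fell (87.5% of those tested, against 65.2% of all genes tested). Snd1, the Tudor nuclease of the silencing complex, rose by 0.29 (141.5 ± 5.14 CPM to 173.5 ± 5.86 CPM, adjusted p = 6.28e-07) and Zswim8, the ubiquitin ligase adaptor of target-directed microRNA decay, by 0.27 (adjusted p = 2.36e-05), both without overlap. The uridylyltransferases moved apart, Zcchc6 (TUT7) higher by 0.10, a call lost in 3 of the 14 fits that left out 1 mouse (adjusted p up to 0.0644), and Zcchc11 (TUT4) lower by 0.15, a call lost in 1 of the 7 alternative fits (adjusted p = 0.0609), and Dis3l2, Tsn and Tsnax fell by 0.22, 0.10 and 0.25, the call for Dis3l2 being lost in 1 of the 7 alternative fits (adjusted p = 0.0728). Lin28a, Lin28b and Trim71 were not tested for lack of reads. Lin28a had 0 to 8 reads in CP CML and 5 to 28 in BC CML, ranges that overlapped. Lin28b had 0 to 1 and 3 to 12 reads, without overlap, and Trim71 had no read in any library. Snd1 apart, these genes were named after their values were seen.

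**Figure D4:**
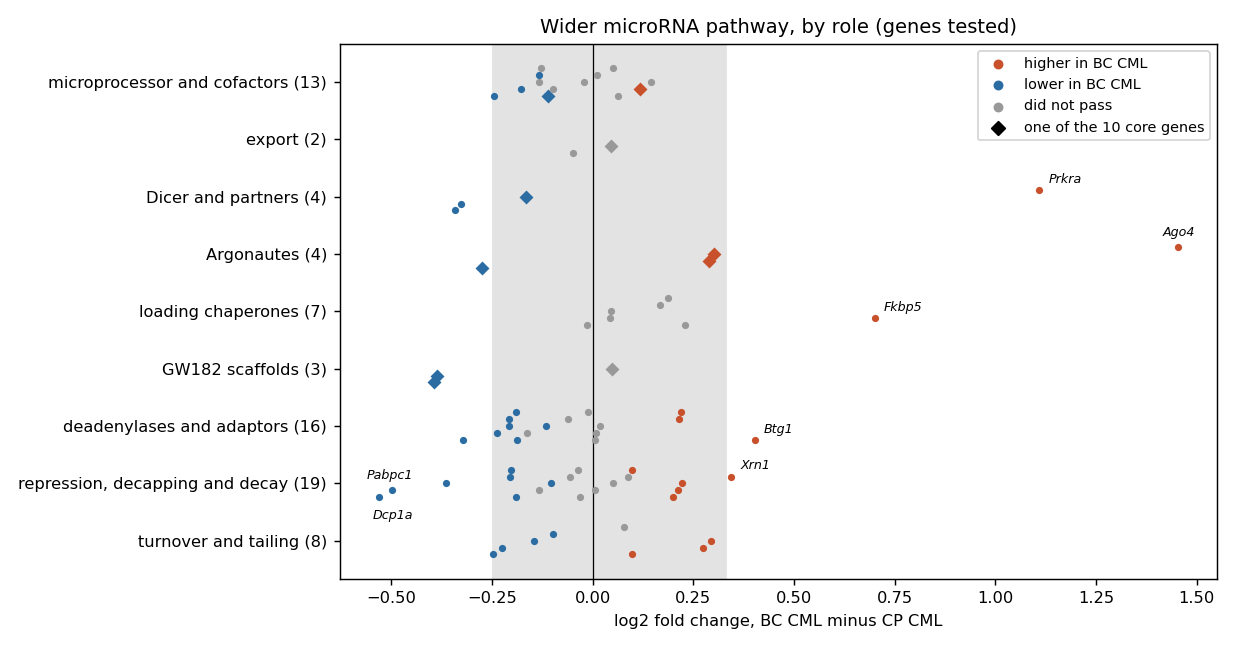
Log2 fold change of BC CML over CP CML (horizontal axis) of the 76 tested genes of the wider pathway, 1 row per role with the number tested, in red where the gene rose, in blue where it fell and in grey where it did not pass, with diamonds for the 10 core genes. The grey band again runs from -0.25 to 0.33, and most genes lie inside it while Ago4 (1.45), Prkra (1.11) and Fkbp5 (0.70) stand to the right and Dcp1a (-0.53) and Pabpc1 (-0.50) to the left.

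Primary microRNA transcripts, on which the machinery acts, were mostly too low in these libraries to be tested, as only 31 of the 1063 microRNA rows in the table were. Of the 31, 5 rose and 7 fell (38.7%, against 65.2% of all genes tested). Mir155hg, the host transcript of miR-155, had 1.28 to 2.95 CPM in CP CML (median 1.95) and 3.41 to 6.32 CPM in BC CML (median 4.67), and rose by 1.23 (SE 0.185, adjusted p = 1.51e-05). Mir22hg, the host of miR-22, had 1.26 to 2.40 CPM in CP CML (median 1.78) and 3.03 to 3.99 CPM in BC CML (median 3.90), and rose by 1.00 (SE 0.169, adjusted p = 5.44e-05). Neither pair of groups overlapped. Mir17hg, the host of the miR-17-92 cluster that promotes T cell proliferation, fell by 0.59 (adjusted p = 0.0036, overlapping, named after its values were seen). Beside Mir142, the single hairpin rows Mir682, Mir703 and Mir7688 fell by 0.68, 0.58 and 1.68. The others that rose were the hairpin rows Mir568, Mir6999 and Mir7115, which lie inside the genes Zbtb20, Dgkz and Arrb2. The others that fell were Mir6516, which lies inside Snhg20, and Mir8091 (a call lost in 1 of the 7 alternative fits, adjusted p = 0.0639). These others were all named after their values were seen. The hairpin rows span few bases, and whether their reads come from a microRNA primary transcript was not tested. The mature products of the hosts that rose are shown with their seeds in capitals (RefSeq, chr16:84714143-84714165 and chr11:75463772-75463793, plus strand), because they have other seeds than miR-142.
mmu-miR-155-5p: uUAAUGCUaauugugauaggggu
mmu-miR-22-3p: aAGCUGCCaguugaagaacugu

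Marker transcripts of T cell states and of other cell types also differed between the groups, and the counts below stand against 32.6% of all genes tested that rose and 32.7% that fell. Defining T cell markers were high in both groups, with a summed level of 3918 to 4563 CPM over 10 genes in CP CML and 4903 to 5215 CPM in BC CML (4 rose, 2 fell). Of these Cd8a rose by 0.87, Cd3g by 0.59, Cd2 by 0.33 and Cd5 by 0.29, Cd4 fell by 0.73 and Cd247 by 0.32, and Cd3d, Cd3e, Lck and Cd8b1 did not pass (log2 fold change 0.07 for Cd8b1). All 7 naive T cell genes fell, with a sum of 4890 to 6238 CPM in CP CML and 2683 to 3852 CPM in BC CML, while 5 of 7 genes of activated and effector T cells rose and 1 fell, with sums of 772.0 to 953.3 CPM and 1296 to 1917 CPM. Myeloid genes rose in 9 of 10, with sums of 61.5 to 437.6 CPM and 534.3 to 1344 CPM, and B cell genes in 5 of 7, with sums of 37.6 to 136.2 CPM and 67.4 to 376.8 CPM. Erythroid genes (1 of 4 tested rose), basophil and mast cell genes (1 of 3 tested rose) and megakaryocyte genes (1 tested, which fell) stayed under 72 CPM in sum in every mouse, and of 9 cycling genes 2 fell. No marker was at 0 in all mice. In bulk samples fewer cells of a type and less RNA per cell cannot be told apart, and the part of these differences in the changes of the microRNA machinery was not tested.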

How the data were processed

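T cell libraries of 8 CP CML and 6 BC CML mice were prepared with a poly(A)-selecting kit and sequenced (101 bases, paired). After trimming (Trimmomatic, FASTP), the authors aligned the reads to mm10 with STAR 2.6.0, counted reads per gene with HTSeq 0.11.1 and deposited the raw counts of 24091 genes. The annotation and strand setting of the counting are not given in the sources used here. Counts were filtered with filterByExpr (12248 genes), scaled by TMM and tested with the quasi-likelihood test of edgeR 4.0.16 (limma 3.58.1, R 4.3.3), robust and with no covariate, with Benjamini-Hochberg adjustment at 0.05. The SE was derived from the fold change and the F statistic. Family ratios were taken per mouse from counts plus 0.5. All libraries differed by more than sampling noise and were kept as separate mice.

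The core genes and all gene lists were chosen with earlier results of these data known. Genes were named by a rule (Mir142, the core genes and Ago4, the 12 pathway genes with the largest changes among those called without overlap, partners of Drosha, Dicer1 and Xpo5, the 6 primary transcripts with the lowest p-values, and the 5 genes most like Dicer1), and others only where the text says so. The fold changes and counts of calls were recomputed with DESeq2 1.42.0, with the likelihood ratio test, with scaling by RLE or by library size, with every gene kept, with a filter of more than 1 CPM in 6 samples, with the replicate number as a block, and without each mouse in turn, the family ratios without each mouse in turn, and the 3′UTR search with 8mers alone. The order of the RPKM levels in CP CML was also taken on the log2(RPKM + 1) scale, and the shares and correlations were not recomputed. The fits were tested on simulated counts.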

Additional observations from a re-analysis of the deposited data

Results flagged for a closer look

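In 3 of the 121 gene and group combinations examined, 1 mouse stood apart from the rest of its group by Dixon's test, where chance alone flags about 1 in 20. Cnot6l in BC CML replicate 6 was at 295.4 CPM, above the next mouse of its group at 249.4 CPM and still under the lowest CP CML mouse (300.7 CPM). The hairpin row Mir682 in BC CML replicate 4 was at 4.23 CPM, under the next mouse at 4.92 CPM. The hairpin row Mir6516 in CP CML replicate 2 was at 3.54 CPM, above the next mouse at 2.36 CPM. None of the 10 core genes, nor Ago4, had a mouse that stood apart by this test. The test weighs the gap beside a single mouse, so it could not flag mice that stand apart together. This was so for Ago2 in CP CML, where replicates 5 and 6 lay at 375.9 and 375.6 CPM and the next at 321.5 CPM.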

How the results depend on the processing

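Drosha, Dicer1, Ago1, Ago2, Ago3, Ago4, Tnrc6a and Tnrc6c kept their direction and their call in all 7 alternative fits and in all 14 fits that left out 1 mouse. Xpo5 and Tnrc6b did not pass in any of them. The replicate numbers of the groups do not pair the mice (mean correlation of same-numbered deviations -0.02 over 6 pairs, from -0.27 to 0.36, and 3 of 12 mice correlated best with their own number). With the replicate block 2 core genes rose and 5 fell, the call lost being that of Dgcr8 (log2 fold change 0.10, adjusted p = 0.0908), and of the pathway 13 rose and 24 fell, with the calls for Ddx5, Srrt, Cnot7, Tob1, Eif4e2, Lsm14a, Zcchc6, Zcchc11 and Dis3l2 lost too (adjusted p from 0.0510 to 0.117) and those for Tob2 and Fxr2, both lower, gained (adjusted p = 0.0096 and 0.0324). Of the primary microRNA rows 5 rose and 6 fell, the call lost being that of Mir8091. Over all genes 7318 of 12248 were called with the replicate block, 3668 of them higher. With no filter on low counts 425 rows of primary microRNAs were tested, of which 23 rose and 17 fell. With the filter 5 of 31 rose and 7 fell. Of the wider pathway 78 genes were tested without the filter, of which 19 rose and 28 fell. Over all genes 8719 of 17599 were called without the filter, 4584 of them higher. With 8mers alone 1 core gene held a match in place of 5. With single mice left out, the difference of log2 ratio ran from -0.0249 to 0.0109 for Ago2 to Ago3 and from -0.0260 to 0.0453 for Tnrc6a to Tnrc6c, changing sign in 3 and 5 of the 14 fits. Only 31 of the 1063 primary microRNA rows held enough reads to be tested at this depth.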
